A study of Schizosaccharomyces pombe with 5 samples.

Results

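The genes described here encode 10 enzymes that carry sugar phosphates through lower glycolysis to pyruvate and on to ethanol in the fission yeast Schizosaccharomyces pombe. They were chosen by name from the platform's gene annotation, and all 10 were among the 4907 genes measured on every array. The enzymes are aldolase (fba1, SPOM_SPBC19C2.07), triose-phosphate isomerase (tpi1, SPOM_SPCC24B10.21), glyceraldehyde-3-phosphate dehydrogenase (gpd3, SPOM_SPBC354.12, and tdh1, SPOM_SPBC32F12.11), phosphoglycerate kinase (pgk1, SPOM_SPBC14F5.04C), enolase (eno101, SPOM_SPBC1815.01), pyruvate kinase (pyk1, SPOM_SPAC4H3.10C), pyruvate decarboxylase (pdc101, SPOM_SPAC1F8.07C, and pdc201, SPOM_SPAC3G9.11C) and alcohol dehydrogenase (adh1, SPOM_SPCC13B11.01). Each was read by 2 oligonucleotides, and 99 of the 100 expected oligonucleotide values were present. pyk1 lacked a value for the first of its oligonucleotides on a single array.

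Messenger RNA was compared on 5 spotted 2-colour arrays with cells grown at 30 degrees. By the labels, 2 arrays, called W1 and W2 here, are wild type repeats 1 and 2 and carried wild-type cDNA in both dyes. The other 3, called T1, T2 and T3, are tra1-1 repeats 1, 2 and 3 and carried Cy5 cDNA of that strain against Cy3 wild-type cDNA. These names stand for the labels and not for a genotype read from the data. The tra1 gene encodes a counterpart of human TRRAP, a scaffold protein of the SAGA acetyltransferase complex. What the tra1-1 allele changes is not in the labels, which give no other genotype and name no medium or growth phase. No array had the dyes swapped. Values are log ratios centred on each array's median, taken as log2 of Cy5 over Cy3. Neither the log base nor the channel in the numerator is stated, and every sign below would turn with the ratio. The labels call the experiments independent without naming separate cultures, so p-values measure only the spread between these arrays.

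Glycolysis splits a hexose bisphosphate into triose phosphates and oxidises them to pyruvate with a net gain of ATP. Glyceraldehyde-3-phosphate dehydrogenase makes NADH, and pyruvate decarboxylase followed by alcohol dehydrogenase turns pyruvate into ethanol and restores the NAD that the pathway needs. Fission yeast ferments glucose to ethanol even in air, and its glycolytic messenger RNAs are among the most abundant in growing cells. Glyceraldehyde-3-phosphate dehydrogenase and pyruvate decarboxylase are each encoded by more than a single gene, which allows paralogs of the same step to be set side by side.

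Labels and tra1 values disagreed, which touches every direction given below. The tra1 ratio was -1.41 and -2.04 on W1 and W2, and 0.04, 0.02 and -2.21 on T1, T2 and T3. An array with wild-type cDNA in both dyes should give a ratio near 0 for any gene, and tra1 went against that on both such arrays. T3 lay with them, and the part of this split in the values below was not tested. Between 9695 and 9832 of 9858 probes had a value on an array. The standard deviation of the ratios over all genes was 0.40, 0.39 and 0.45 on W1, W2 and T3, against 0.26 and 0.30 on T1 and T2. Groups below keep the deposited labels.

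As a group the enzymes stood above the other genes on every array. Their median ratio was 0.57 and 0.48 on W1 and W2, 0.15 and 0.19 on T1 and T2, and 0.49 on T3. The median over all genes was between -0.01 and 0.02 on each array. All 10 ratios were above 0 on W1, W2 and T3, and 7 of 10 were on each of the other arrays, where 50.4% and 49.2% of all genes were. Leaving gpd3 aside, the medians in the same order of arrays were 0.48, 0.48, 0.09, 0.16 and 0.46, again lower on T1 and T2 than on the other arrays. Against the spread of each array, 7 and 6 of the enzymes lay among the top 10% of all genes on W1 and W2, 4 and 2 on T1 and T2, and 4 on T3. The T1 count includes fba1 (0.43), whose ratio is not read as a level below. In bulk RNA, a change in the share of cells that express a gene and a change per cell cannot be told apart.

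**Figure D1:**
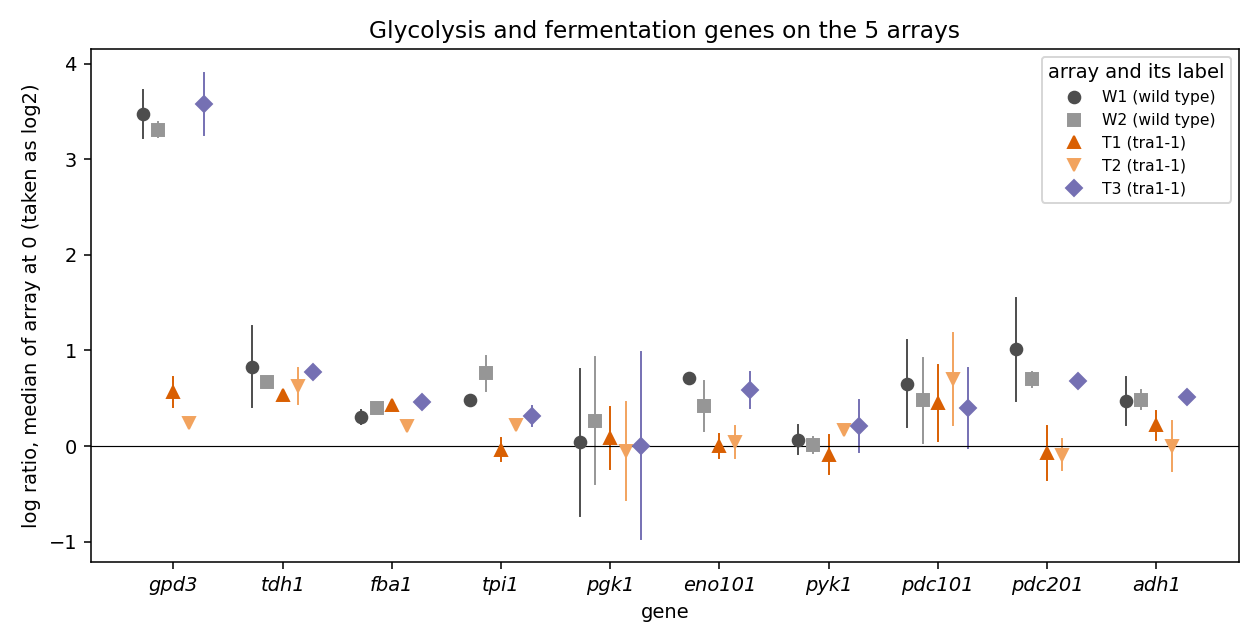
Log ratio (vertical axis, taken as log2, array median at 0) of each of the 10 genes on each of the 5 arrays. Symbols are the mean of a gene's 2 oligonucleotides and vertical lines join the 2 oligonucleotides. gpd3 lies at 3.31 to 3.58 on 3 arrays and at 0.56 and 0.24 on the others, whereas tdh1 stays between 0.54 and 0.83.

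gpd3 had the widest swing of the 10. Its ratio was 3.48 and 3.31 on W1 and W2, and 0.56, 0.24 and 3.58 on T1, T2 and T3. It ranked highest of all 4907 genes on W1, W2 and T3, and ranked 128 and 1041.5 from the top on T1 and T2. Were the ratio the other way up, the same ranks would count from the bottom. Both gpd3 oligonucleotides gave this pattern, with 3.22 to 3.90 on the 3 high arrays and 0.23 to 0.72 on the low ones. The groups overlapped because of T3.

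tdh1, which encodes the other glyceraldehyde-3-phosphate dehydrogenase, did not swing in this way. It stood at 0.83 and 0.67 on W1 and W2 and at 0.54, 0.63 and 0.77 on T1, T2 and T3. The groups overlapped, and the whole range over 5 arrays was smaller than the gap between the tdh1 oligonucleotides on W1, where they read 1.26 and 0.41. Set against its paralog, gpd3 was higher by 2.64 on W1 and W2 and by 2.81 on T3. On T1 and T2 the difference was 0.03 and -0.39. The ratios of the paralogs thus moved unequally between arrays, and centring cannot alter a difference taken within an array. Averaged by label, the paralog difference was 2.64 ± 0.00 (SD, n = 2) for wild type and 0.82 ± 1.74 (SD, n = 3) for tra1-1, and no difference between the groups was shown (-1.83, exact permutation p = 0.6, 2-sided, where 0.2 is the smallest p that 3 against 2 arrays allow). Without T3 the difference was -2.82, with 2 arrays on each side.

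The mean ratios of the pyruvate decarboxylase genes changed order between arrays. pdc201 lay above pdc101 on W1, W2 and T3 and below it on T1 and T2. pdc201 stood at 1.01 and 0.70 on W1 and W2, and at -0.07, -0.09 and 0.68 on T1, T2 and T3. In these means T1, T2 and T3 all lay below W1 and W2, but T3 only just below W2. Neither pdc201 oligonucleotide alone separated the groups. With the first, T3 (0.71) lay above W1 (0.475), and with the second, T3 (0.646) lay above W2 (0.623). The pdc201 oligonucleotides read 0.064 to 1.078 apart, and were furthest apart on W1. pdc101 stood at 0.65 and 0.48 and at 0.45, 0.70 and 0.39, in overlapping groups. The difference pdc201 minus pdc101 was 0.36 and 0.22 on W1 and W2, -0.53 and -0.79 on T1 and T2, and 0.28 on T3. Its mean was 0.29 ± 0.10 (SD, n = 2) for wild type and -0.35 ± 0.56 (SD, n = 3) for tra1-1. No difference between the groups was shown (-0.64, exact permutation p = 0.4, 2-sided), and its size was -0.95 without T3. The pdc101 oligonucleotides read 0.79 to 0.97 apart on every array, so the height of its mean ratio depends on which is taken, but neither of them separated the groups. The order of the paralogs depends on this choice too. The second pdc101 oligonucleotide read 0.812 to 1.188 and lay above the pdc201 mean on every array. The first read -0.023 to 0.222, and against it the pdc201 mean kept the order given above. Whether the oligonucleotides tell the paralogs of either step apart was not tested.

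**Figure D2:**
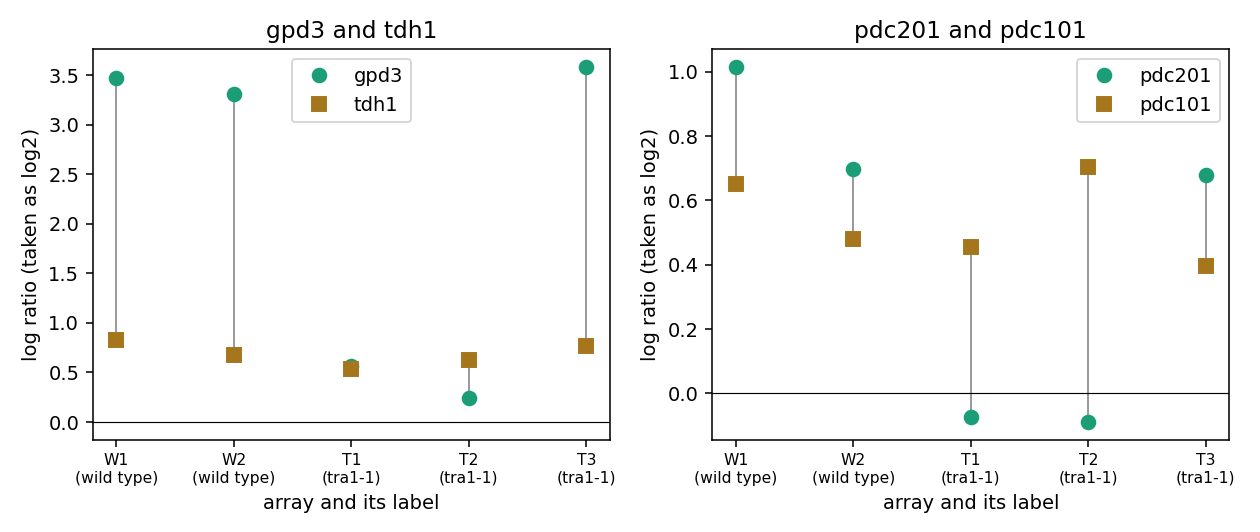
Log ratios (vertical axis, taken as log2) of the paralogs gpd3 and tdh1 (left) and pdc201 and pdc101 (right) on each array, joined by a grey line. Symbols are the mean of a gene's 2 oligonucleotides. gpd3 exceeds tdh1 by 2.64 to 2.81 on 3 arrays and lies within 0.39 of it on the others. The pdc201 mean lies above that of pdc101 on the same 3 arrays and below it on the other 2. Against the second pdc101 oligonucleotide alone, the pdc201 mean is lower on every array.

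Among the remaining steps, tpi1, eno101 and adh1 were higher on W1 and W2 than on T1 and T2. tpi1, whose product interconverts the triose phosphates, stood at 0.48 and 0.76 and at -0.04, 0.22 and 0.32. It was the only member besides pdc201 whose mean ratios did not overlap between groups. Unlike gpd3, it was not as high on T3 as on W1 or W2. eno101, the enolase gene, stood at 0.72 and 0.42 and at 0.01, 0.04 and 0.59, and its T3 value fell between the wild-type values. adh1, which encodes the enzyme that reduces acetaldehyde to ethanol, stood at 0.47 and 0.48 and at 0.22, 0.00 and 0.51. Both eno101 oligonucleotides and both of adh1 had lower means on T1, T2 and T3.

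The mean ratios of pgk1 and pyk1 did not have this order. pgk1, which encodes the first ATP-forming kinase of the pathway, stood at 0.04 and 0.27 and at 0.09, -0.05 and 0.00, a mean of oligonucleotides that disagreed. The first read 0.80 and 0.93 on W1 and W2 and 0.41, 0.46 and 0.98 on T1, T2 and T3, and the second -0.73, -0.40, -0.24, -0.56 and -0.97 in that order. The first alone was thus higher on W1 and W2 than on T1 and T2. The pgk1 oligonucleotides were 0.65 to 1.95 apart and furthest from 0, in opposite directions, on T3, so their mean near 0 is no measure of an unaltered transcript. pyk1, encoding the pyruvate-forming kinase, stood at 0.07 and 0.01 and at -0.09, 0.16 and 0.21, with overlapping groups. Its T2 value is that of the second oligonucleotide alone, which read 0.169 to 0.548 above the first on the other arrays. T2 is therefore not on the same footing as the means beside it. The group difference of pyk1 was -0.0998 with the first oligonucleotide, which lacks T2, and 0.0973 with the second.

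The fba1 values need a separate reading, because most sit within 0.001 of 0 in the deposited table. The second fba1 oligonucleotide was within 0.001 of 0 as deposited on all 5 arrays, and the first on T1 and T2. After centring, the gene therefore takes little more than the shift applied to each array, with 0.30 and 0.40 on W1 and W2 and 0.43, 0.21 and 0.46 on T1, T2 and T3. Probes within 0.001 of 0 were more frequent than nearby values on every array, with 31, 41, 51, 78 and 31 probes on W1, W2, T1, T2 and T3. Neighbouring values gave 23.3, 15.0, 12.7, 27.4 and 14.8 probes for the same width of values. Only 4 probes were at 0 on all 5 arrays, and they belong to fba1, cpc2, pma1 and tef103, named here after their values were seen. pma1 encodes the plasma membrane proton pump and tef103 a translation elongation factor, both known for abundant messenger RNA. Of the 99 oligonucleotide values of the 10 enzymes, 8 were at 0, 7 of them of fba1 and 1 of eno101. What sets values to 0 was not tested, since channel intensities were not analysed here, and no fba1 ratio is read as a level here, although medians and counts over the 10 enzymes include the gene.

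**Figure D3:**
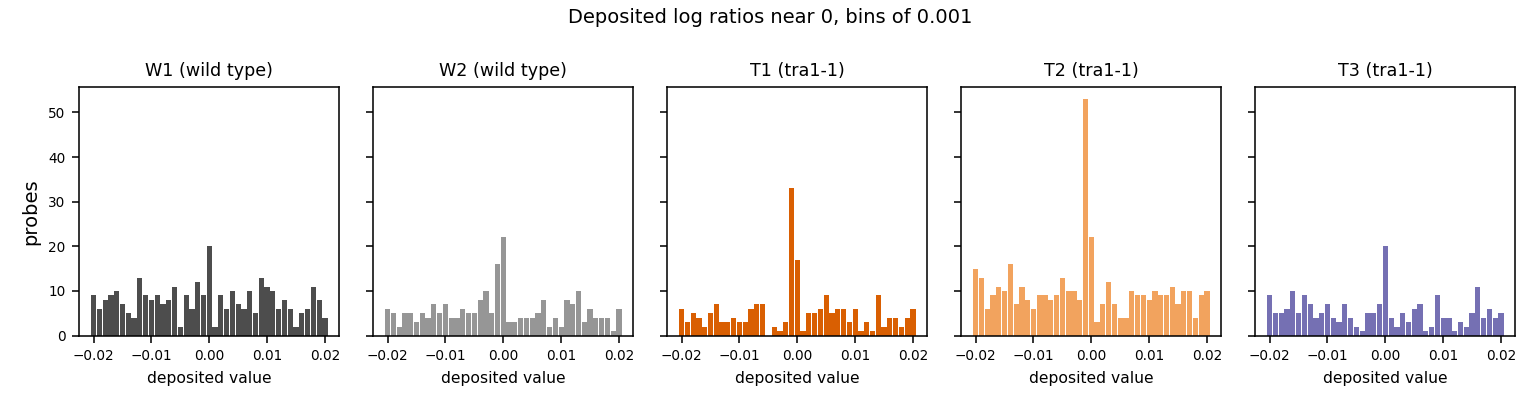
Number of probes (vertical axis) by deposited log ratio (horizontal axis, bins of 0.001, before centring) on each array. The bin at 0 is the highest on W1, W2 and T3, and the bin just below 0 is the highest on T1 and T2, where 51 and 78 probes lie within 0.001 of 0.

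The main comparison set the mutant label against the wild-type label. In limma 0 of the 10 genes passed at an adjusted p under 0.05, and so did 0 of 4907 genes (0.0%). At an unadjusted p under 0.05 there were 3 members, gpd3, tpi1 and pdc201, against 7.11% of all genes. 8 of 10 differences were below 0, as were 50.6% of all genes, and the median difference was -0.19 against 0.00 over all genes. The difference of gpd3 was -1.93 ± 0.75 (SE), with means of 3.39 ± 0.12 (SD, n = 2) and 1.46 ± 1.84 (SD, n = 3) and a limma adjusted p of 0.685. pdc201 differed by -0.68 ± 0.24 (SE, limma adjusted p = 0.654) and tpi1 by -0.46 ± 0.18 (SE, limma adjusted p = 0.685). By mean ratio the groups of 2 members, pdc201 and tpi1, did not overlap, both lower on T1, T2 and T3. Of all genes, 12.0% had this order. With either oligonucleotide alone the pdc201 groups overlapped.

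The other members gave intervals that contain 0. eno101 differed by -0.36 (95% interval -0.82 to 0.10) and adh1 by -0.24 (-0.64 to 0.17). Intervals of the enzymes with the smallest differences were -0.47 to 0.25 for tdh1, -0.42 to 0.33 for pdc101, -0.31 to 0.42 for pyk1 and -0.50 to 0.21 for pgk1. The pyk1 interval takes the T2 value from its second oligonucleotide alone. fba1 differed by 0.02, a value made mostly of the shifts described above. These intervals come from the limma fit over 5 arrays, and missing the threshold does not show that the levels were alike.

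Leaving out T3, whose tra1 and gpd3 values lay with those of W1 and W2, changed the outcome for gpd3 and pdc201. T3 stands out by these same values, so the p-values without it are no separate support for a difference. Without T1 or without T2, 0 of 4907 genes passed, and gpd3 differed by -1.48 and -1.32 (limma adjusted p = 0.957 and 0.996). Without T3, gpd3 differed by -2.99 ± 0.17 (SE, limma adjusted p = 7.26e-09) and pdc201 by -0.94 ± 0.17 (SE, limma adjusted p = 0.0022), both lower in the labelled mutant, with 2 arrays on each side. These were 2 of 10 members passing, both below 0, against 4.18% of all genes in either direction and 1.71% below 0. eno101 and tpi1 differed by -0.55 and -0.53 and did not pass (limma adjusted p = 0.0758 and 0.0928), and adh1 differed by -0.37 (limma adjusted p = 0.239). The paralogs tdh1 and pdc101 differed by -0.17 (95% interval -0.51 to 0.17) and 0.01 (-0.34 to 0.36). Groups of 6 members did not overlap in this direction, against 24.0% of all genes. With the replicate number of the labels as a block, which gives T3 no weight because no wild-type array shares its number, gpd3, tpi1, eno101 and pdc201 passed (limma adjusted p = 3.13e-20, 0.047, 0.0433 and 8.77e-05), against 6.7% of all genes in that fit. That fit has nearly as many coefficients as arrays and takes its spread mostly from the pool of all genes. Its p-values therefore do not measure how well gpd3 or the other members repeat. The numbers do not pair the arrays by any label.

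**Figure D4:**
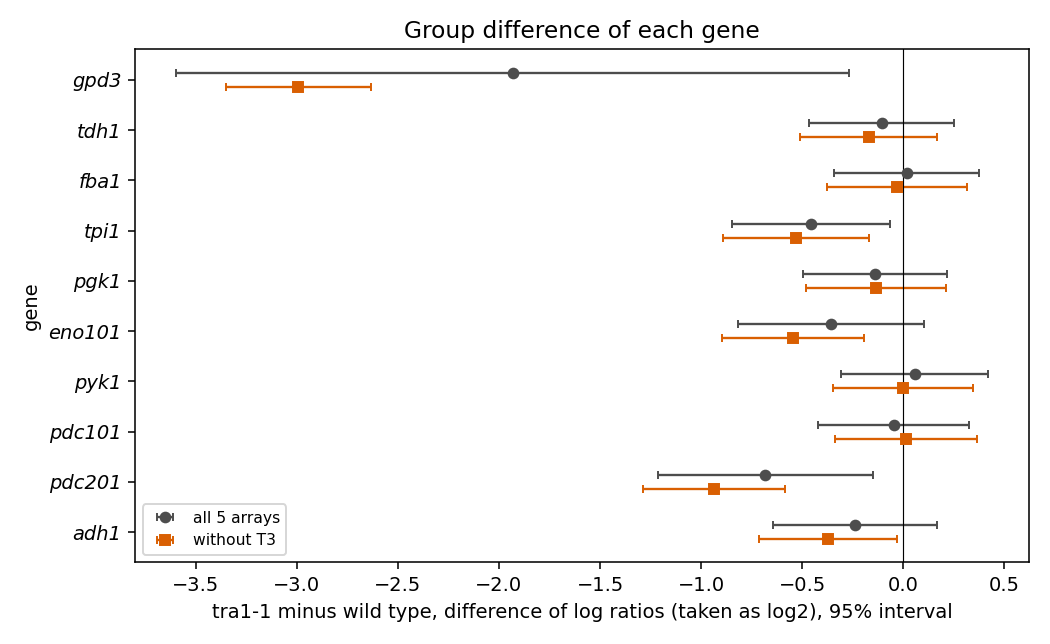
Difference of log ratios between the T arrays (T1 to T3) and the W arrays (horizontal axis, taken as log2) for each gene, with 95% intervals from limma. Black circles use all 5 arrays and orange squares leave out T3, which moves gpd3 from -1.93 to -2.99 and narrows its interval.

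The second comparison set W1 and W2 against 0, the value that identical RNA in both dyes would give. limma called 6 of the 10 genes, all above 0, against 11.4% of all genes in either direction and 6.4% above 0. They were gpd3 (3.39, limma adjusted p = 0.00926), pdc201 (0.86 ± 0.22, SD, n = 2, limma adjusted p = 0.0185), tdh1 (0.75 ± 0.11, SD, n = 2, limma adjusted p = 0.00868), tpi1 (0.62, limma adjusted p = 0.0193), eno101 (0.57, limma adjusted p = 0.047) and pdc101 (0.57, limma adjusted p = 0.0234). adh1 (0.48) came close, with a limma adjusted p of 0.0531. It passed with quantile normalization, scale normalization, a robust prior and array weights (limma adjusted p = 0.0351, 0.0284, 0.0459 and 0.0123). adh1 also passed with its first oligonucleotide alone, but not with its second or as deposited (limma adjusted p = 0.026, 0.326 and 0.432). pgk1 (0.15) and pyk1 (0.04) did not pass. With its first oligonucleotide alone pgk1 passed at 0.87, and with its second it read -0.56 and did not (limma adjusted p = 0.00973 and 0.0784). A robust variance prior ended the call for gpd3 (limma adjusted p = 0.14), and with the values as deposited, where the median of all genes lay at -0.30, gpd3, tdh1 and pdc201 alone among the 10 passed, against 31.8% of all genes in either direction and 1.94% above 0. Each of tdh1, tpi1, eno101, pdc101 and pdc201 missed the threshold with 1 of its oligonucleotides taken alone, and eno101 also without T1 or without T2 (limma adjusted p = 0.0621 and 0.0616). Leaving out W1 or W2 leaves a lone array, assumed to vary like T1, T2 and T3, and then 0 members passed, while without T3 it was 8 of 10, fba1 among them, against 27.9% of all genes.

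T1, T2 and T3 were set against 0 as the direct ratio of mutant to wild type, in which any dye effect remains. limma called 2 of 10 genes, both above 0, against 7.83% of all genes in either direction and 5.6% above 0. They were tdh1 (0.65 ± 0.12, SD, n = 3, limma adjusted p = 0.0226) and pdc101 (0.52 ± 0.16, SD, n = 3, limma adjusted p = 0.0388). gpd3, whose 3 values ran from 0.24 to 3.58, did not pass (limma adjusted p = 0.119). Leaving out any of the 3 arrays brought gpd3 past the threshold, at a mean of 1.91 without T1, 2.07 without T2 and 0.40 without T3 (limma adjusted p = 0.0474, 0.0457 and 0.00705). It also passed with the values as deposited and with its first oligonucleotide alone (limma adjusted p = 0.0241 and 0.0346). Without T3, 4 members passed, gpd3 and fba1 among them, against 22.4% of all genes. Neither tdh1 nor pdc101 passed with the values as deposited (limma adjusted p = 0.0935 and 0.361), where the median of all genes lay at -0.37, and pdc101 did not pass without T1 or without T2 (limma adjusted p = 0.0969 and 0.183). tdh1 did not pass without T2 (limma adjusted p = 0.0734), and pdc101 did not with its first oligonucleotide alone (limma adjusted p = 0.733). pgk1 passed above 0 with its first oligonucleotide (0.62) and below 0 with its second (-0.59) and as deposited (-0.34). The limma adjusted p values were 0.0275, 0.0487 and 0.0466.

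Enzymes of the neighbouring steps were put to the same test of tra1-1 against wild type, which called 0 of 4907 genes. Counts of 0 in this and the following lists therefore do not set the lists apart from other genes. Of 7 measured genes for other steps of glycolysis and gluconeogenesis, 0 passed and the median difference was 0.06. They include gpm1, the phosphoglycerate mutase gene, at 0.31 and 0.41 on W1 and W2 and 0.21, 0.06 and 0.28 on T1, T2 and T3, as well as the hexokinase gene hxk2 at a difference of 0.22. pyr1, which encodes pyruvate carboxylase, had a difference of 0.40 (limma adjusted p = 0.685), with 0.40, 0.55 and 0.80 on T1, T2 and T3 against 0.24 and 0.11. eno102, the other enolase gene on the list, was not measured here under that symbol.

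Genes for ethanol and acetate formation outside the 10 enzymes divided in sign. 0 of 4 passed, as did 0 of 4907 genes, and the median difference of the 4 was -0.01. atd1, which encodes an aldehyde dehydrogenase, followed the gpd3 order at 0.68 and 0.78 on W1 and W2, 0.09 and 0.18 on T1 and T2, and 0.81 on T3. Its difference was -0.37 over 5 arrays and -0.60 without T3 (limma adjusted p = 0.747 and 0.0387). adh4, another alcohol dehydrogenase gene, ran the other way, with -0.13 and -0.53 against 0.19, 0.19 and -0.40. The remaining pyruvate decarboxylase genes pdc102 and pdc202 differed by 0.11 and -0.12.

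Further along, 0 of 5 genes of the pyruvate dehydrogenase complex, 0 of 6 of the pentose phosphate pathway and gluconate shunt, and 0 of 10 of the tricarboxylic acid cycle passed with all 5 arrays. Of all genes, 0 of 4907 passed as well. The median differences of these lists were 0.10, -0.03 and -0.22. Differences nearest to the threshold were those of pdb1 (-0.25) and dld1 (0.26) of the first list, of the gluconokinase gene idn1 (-0.44) and the transaldolase gene tal1 (-0.30), and of aco1 (-0.46) and kgd2 (-0.37), which encode an aconitase and a subunit of 2-oxoglutarate dehydrogenase. Without T3, zwf1 was higher in the labelled mutant by 0.75 and cit1 was lower by a difference of -0.60 (limma adjusted p = 0.00926 and 0.0462). zwf1 encodes the dehydrogenase that draws glucose-6-phosphate into the pentose phosphate pathway, and cit1 encodes citrate synthase.

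Regulators of the response to glucose were also listed, since glucose represses some of these pathways through protein kinase A and the repressor Scr1. Of 14 genes for glucose sensing and signalling, 0 passed with all 5 arrays, as did 0 of 4907 genes. Of the 14 differences, 10 were below 0, and the median was -0.10. scr1 stood at 0.63 and 0.29 on W1 and W2, -0.20 and -0.51 on T1 and T2, and 0.44 on T3. Its difference was -0.55, and -0.82 without T3 (limma adjusted p = 0.704 and 0.0101). rst2, which encodes the activator opposed by protein kinase A, differed by -0.41 (limma adjusted p = 0.685). In the Sty1 stress kinase list 0 of 4 passed, with pcr1, encoding the partner of the factor Atf1, at -0.64 and wis1 at -0.27. Without T3 pcr1 differed by -0.85 (limma adjusted p = 0.00506). Across the 7 lists beside the 10 enzymes, the genes that passed without T3 were atd1, zwf1, cit1, scr1 and pcr1, 1 in each of 5 lists. These were 5 of 50 measured genes, against 4.18% of all genes.

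**Figure D5:**
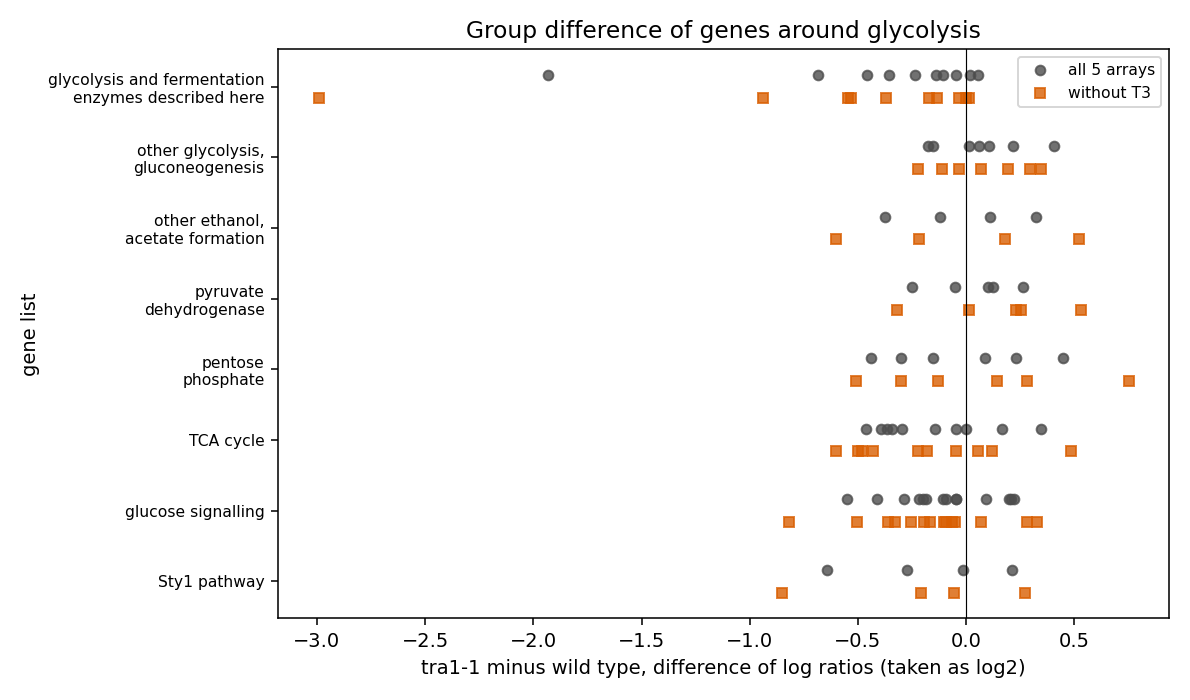
Difference between the T arrays (T1 to T3) and the W arrays (horizontal axis, taken as log2) for every measured gene of 8 lists, with all 5 arrays (black circles) and without T3 (orange squares). gpd3 at -1.93 and -2.99 lies beyond every other gene shown, and the lists spread to both sides of 0.

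The 10 enzymes were left out of the search for named genes closest to gpd3 in their values. Among the other named genes, the nearest 5 were not enzymes of glycolysis. By Euclidean distance over the 5 centred ratios the nearest was hsp9 (distance 1.15), a small heat shock protein gene at 3.04, 2.77, 0.31, 0.24 and 2.70 on W1, W2, T1, T2 and T3. SPOM_SPAC27D7.11C followed at 1.27, then the noncoding RNA nc-pho1 (1.99), the M-factor precursor gene mfm2 (2.34) and tsp0 (2.39). All 5 were high on the same 3 arrays as gpd3, which the measure of distance favours.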

How the data were processed

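The deposited table holds log ratios of the 2 channels of each array, taken as log2 values. The scanner, background correction, normalization within arrays and log base behind these deposited values are not given in the sources used for this work. Per the labels, cDNA from some 30 ug of total RNA was dye-coupled, 1.5 ug for each channel.

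Each array was centred on its median (deposited medians -0.21 to -0.43). Probes were named through the platform annotation: 9632 of 9858 had 1 symbol, 44 several, and 182 were not listed. Of 4816 named genes, 4791 matched the reference assembly ASM294v3 by gene ID. It served for names only, because no build is named for the array. The oligonucleotides of a gene were averaged, and 22 of 4929 genes or probe pairs without a value on some array were left out.

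Differences were tested in limma 3.58.1 (lmFit, eBayes; R 4.3.3), 2-sided, with Benjamini-Hochberg adjustment over all 4907 genes. The ratio labelled wild type came from that fit, and the ratio labelled tra1-1 from its 3 arrays alone. Paralogs were compared by exact permutation over arrays. The fit was tested on simulated data with independent noise and changes shared by all 3 tra1-1 arrays. That test does not cover an array that lies with the other group, as T3 did for gpd3. Figures used matplotlib 3.10.9. The number of arrays limits the precision, and signal over background was not analysed here.

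Named genes were all 10 members and tra1. From each other list they were those past the test or otherwise the 2 with the smallest p. To these were added the 5 named genes outside the members that were nearest to gpd3. Genes with a call without T3 (zwf1, cit1) and gpm1, pdc102 and pdc202 were named after their values were seen. Members and lists were chosen with earlier results of these data known.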

Additional observations from a re-analysis of the deposited data

How the results depend on the processing

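No member passed the comparison of tra1-1 with wild type with all 5 arrays and other scaling, other oligonucleotide handling or a robust prior. Array weights gave 2 members (gpd3 and pdc201) and the replicate block 4, and leaving out an array gave 0 to 2. Over all genes that comparison called 0, and 2 with scale normalization, 1 with the second oligonucleotide, 329 with the replicate block, 95 with array weights and 0 to 205 without an array. The labels state no pairing by replicate number. Differences between replicates 1 and 2 correlated at r = 0.00186 between groups, across genes, which cannot exclude a pairing. For wild type against 0, 559 genes passed, 56.2% of them above 0, and 1561 as deposited (6.09% above 0), 856 with scale normalization, 1188 with array weights and 0 to 1367 without an array. Of the members, 6 passed, 3 as deposited and 0 to 8 without an array. For tra1-1 against 0, 384 genes passed, 71.6% above 0, and 2613 as deposited (2.53% above 0), 645 with quantile and 672 with scale normalization, 662 with the first oligonucleotide, 887 with array weights and 65 to 1100 without an array. Of the members, 1 to 4 passed without an array. The split between higher and lower calls was 59.5% above 0 with array weights, 57.2% without T3 and 93.8% without T2. The causes were not tested.

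Group differences that turned were those of tdh1 (0.037, second oligonucleotide), pyk1 (-0.001 with the replicate block, and -0.001 to 0.15 without an array), pdc101 and fba1. pdc101 was at 0.012 with quantile normalization, 0.014 with the replicate block and -0.14 to 0.0385 without an array. fba1 was at -0.029 as deposited, -0.013 with the first oligonucleotide, -0.031 with the replicate block, -0.0096 with array weights and -0.033 to 0.096 without an array. As deposited, wild type ratios were -0.16 for pgk1 and -0.27 for pyk1, and tra1-1 ratios were -0.19 for tpi1, -0.34 for pgk1, -0.15 for eno101, -0.26 for pyk1, -0.18 for pdc201 and -0.12 for adh1. With its second oligonucleotide pgk1 read -0.56 in the wild type group and -0.59 in the tra1-1 group. Without an array, tra1-1 ratios ranged from -0.024 to 0.044 for pgk1, -0.082 to 0.30 for pdc201 and -1.09 to 0.031 for tra1. The paralog differences kept their sign in every setting tried, from -2.82 to -1.22 (gpd3 minus tdh1) and -0.95 to -0.41 (pdc201 minus pdc101) without an array. Treating values at 0 as missing, an alternative chosen after seeing the data, left fba1 out and ended the wild-type call of eno101 (limma adjusted p = 0.0575).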
